A study of Mus musculus with 10 samples.

Results

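Cells in which the histone demethylase LSD1 was knocked down were compared between 24 h and 48 h after transfection, on 5 of the series' 10 Affymetrix arrays. The cells were 3T3-L1 preadipocytes, an established mouse line of fibroblast origin that can be turned into fat cells in culture. Every group received 60 nM of an siRNA, directed against LSD1 (siLsd1) or scrambled (siC), in medium with calf serum that was not renewed. The siLsd1 cells of 24 h were of passage 19 and gave 2 arrays, and those of 48 h were of passage 21 and gave 3 arrays. The siC cells had the same times, passages and numbers of arrays and stand beside them as the control for time. Time and passage go together in both, so that they cannot be told apart, and the 48 h dishes are not a later reading of the 24 h dishes. Replicates are labelled as biological, with no word on separate transfections, so that p-values reflect no more than the spread between these samples. Intensities are printed in the order of replicate number, so that the last of 3 values at 48 h is siLsd1 48 h replicate 3.

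LSD1, encoded by Kdm1a, removes methyl groups from histone tails as part of corepressor complexes. Preadipocytes divide until they become crowded, and genes of DNA replication are known to be switched on by E2F factors, genes of mitosis through a promoter element called the cell cycle homology region. Interferon beta is a secreted antiviral signal, whose receptor acts through STAT and IRF factors on the interferon-stimulated response element of antiviral genes, while NF-kB drives many chemokine and cytokine genes.

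The identity of the cells was checked by markers. Of 11 preadipocyte and fibroblast markers on the array, 9 had a geometric mean over 100 intensity units, led by Vim at 13834. Of mature adipocyte markers Fabp4 alone passed 100 units, of skeletal muscle markers Acta1 alone, and none of the endothelial, epithelial or lymphocyte markers did. Among 11 macrophage markers Adgre1, Csf1r, Lyz2 and Mpeg1 passed 100 units. The list summed to 1968 and 2364 units on the siLsd1 24 h arrays and to 809 to 1162 at 48 h, and Mpeg1 carried most of that drop. Of 8 macrophage markers tested 2, Mpeg1 and Lyz2, fell and 0 rose (median log2 change 0.10, and −0.04 without replicate 3). Mpeg1, which encodes a pore-forming protein, had intensities of 1701 and 1348 at 24 h and 569.7, 579 and 271 at 48 h, and the leukocyte genes Ptprc and Itgam stayed under a mean of 100 units. The part of such cells in the immune genes below was not tested. Array medians ranged from 35.6 to 40.6 units.

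SiLsd1 48 h replicate 3 differed from the rest of its group, and results are therefore given with and without it. Among the 6943 brighter genes (mean log2 intensity 8 or above), the SD of its log2 difference from its replicates was 0.439 and 0.441, against 0.0892 to 0.205 for the other pairs within a group. From siLsd1 24 h replicates 1 and 2 the SD was 0.361 and 0.353, so that this array lay nearer to them than to its own replicates. Kdm1a was measured at 1001 and 971 units at 24 h and at 1352, 1336 and 897 at 48 h. Replicates 1 and 2 of 48 h lay above both 24 h arrays, whereas replicate 3 lay below them. The time change of Kdm1a was not called with all arrays (log2 change 0.25, SE 0.16, limma adjusted p 0.328) and was 1.36-fold higher at 48 h without replicate 3 (log2 change 0.45, SE 0.07, limma adjusted p 0.000342). In siC cells Kdm1a had 1559 and 1621 units at 24 h and 1596, 1787 and 1775 at 48 h (log2 change 0.11, SE 0.16, limma adjusted p 0.666). All 5 siLsd1 arrays stayed below all 5 siC arrays.

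limma called 1962 of 13644 genes between 24 h and 48 h in siLsd1 cells, 989 higher at 48 h (7.25% of the genes tested) and 973 lower (7.13%). Of these, 116 rose and 259 fell by more than 2-fold. Without replicate 3 the counts were 2900 higher (21.3%) and 2332 lower (17.1%), and 1960 of the 1962 genes kept their call and direction. Since the shared estimate of the spread is smaller without this array, few calls could be lost, and their keeping says little about how firm they are. The counts of gene lists below stand against these shares, with and without replicate 3. Leaving out siLsd1 24 h replicate 1 or 2 gave 471 and 357 calls, and leaving out siLsd1 48 h replicate 1 or 2 gave 1059 and 1014. With each array centred on its median, 760 were higher and 1311 lower. In siC cells 1640 genes were higher at 48 h (12%) and 1662 lower (12.2%), and 2878 (21.1%) and 2632 (19.3%) when siLsd1 48 h replicate 3 was left out of the shared estimate of the spread. Genes called in the same direction with both siRNAs numbered 1569, which is 80% of the siLsd1 calls and 47.5% of the siC calls, and 0 were called in opposite directions. The difference between the time changes of the siRNAs was called for no gene by limma with all arrays (0.00%, with 896 genes at an unadjusted p under 0.05), and for 147 genes above 0 (1.08%) and 54 below 0 (0.396%) without replicate 3.

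The leading falls were genes of cell division, of interferon, and of chemokines and cytokines. A promoter with the group's known motif is shown for each, for the last that of a cytokine and of no chemokine. Outside the mitosis list most members lack the motif in the window searched. The sequences are the 250 bases before the annotated start in RefSeq (build GRCm38.p6), on the strand of the gene, and capitals mark the motif. Mki67, a proliferation marker (chr7:135716380-135716629, minus strand), holds the cell cycle homology region TTTGAA at 2 places, Cdc6 and Mcm5, both of replication origin licensing, hold an E2F site on the opposite strand (TTTCCCGC in Cdc6, chr11:98907901-98908150, plus strand, and TTTGGCGC in Mcm5, chr8:75109259-75109508, plus strand), Rsad2, an antiviral effector (chr12:26456453-26456702, minus strand), holds the response element core GAAANNGAAA on the opposite strand, and the cytokine gene Il6 (chr5:30012864-30013113, plus strand) an NF-kB site GGGANTTTCC.
Mki67: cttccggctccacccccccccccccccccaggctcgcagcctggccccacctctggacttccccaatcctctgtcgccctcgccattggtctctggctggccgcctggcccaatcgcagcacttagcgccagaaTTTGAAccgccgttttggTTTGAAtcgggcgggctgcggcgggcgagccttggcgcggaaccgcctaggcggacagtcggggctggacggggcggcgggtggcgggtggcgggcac
Cdc6: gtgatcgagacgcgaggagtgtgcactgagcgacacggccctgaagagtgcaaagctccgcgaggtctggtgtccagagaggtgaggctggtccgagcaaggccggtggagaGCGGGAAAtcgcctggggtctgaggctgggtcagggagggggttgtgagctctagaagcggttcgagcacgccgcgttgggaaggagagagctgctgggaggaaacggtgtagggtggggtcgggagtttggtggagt
Mcm5: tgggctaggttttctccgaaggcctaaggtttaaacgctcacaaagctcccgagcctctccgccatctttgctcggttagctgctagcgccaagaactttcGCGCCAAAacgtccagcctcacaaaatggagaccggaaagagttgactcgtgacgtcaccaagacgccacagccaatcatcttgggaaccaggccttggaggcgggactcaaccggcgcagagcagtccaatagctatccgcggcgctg
Rsad2: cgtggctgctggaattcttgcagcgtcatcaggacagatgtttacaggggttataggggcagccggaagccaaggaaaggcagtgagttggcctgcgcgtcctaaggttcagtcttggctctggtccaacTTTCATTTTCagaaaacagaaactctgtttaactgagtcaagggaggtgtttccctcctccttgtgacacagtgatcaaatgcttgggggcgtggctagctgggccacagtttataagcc
Il6: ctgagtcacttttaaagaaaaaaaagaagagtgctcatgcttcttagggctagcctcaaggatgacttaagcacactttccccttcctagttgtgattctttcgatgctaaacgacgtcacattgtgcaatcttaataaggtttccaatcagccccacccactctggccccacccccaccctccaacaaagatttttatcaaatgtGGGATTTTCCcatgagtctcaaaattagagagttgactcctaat

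These motifs were searched on both strands in 13912 windows of 300 bases (250 before and 50 from the start on) of 10914 genes tested. TTTGAA lay in 28 of 36 windows of genes of G2 and mitosis (77.8%), against 12.3% of all windows. An E2F site in either form lay in 11 of 37 windows of the S phase list (29.7%) against 2.72% of all windows. The response element core lay in 12 of 31 windows of interferon effectors (38.7%) and 6 of 21 of the interferon, IRF and STAT genes (28.6%), against 2.97%. The NF-kB letters lay in 6 of 25 windows of the chemokine and cytokine list (24.0%) against 0.482%. These windows were of Csf1, Cxcl1, Il6, Nfkb2 and Nfkbia, and no chemokine gene named below was among them. The sterol regulatory element TCACNCCAC lay in 1 of 22 windows of the cholesterol list (4.55%) against 1.14%. A match describes letters and shows no binding.

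Genes of mitosis and of DNA replication fell together between 24 h and 48 h. In the list of G2 and mitosis, with 39 genes tested, 0 rose and 34 fell, with a median log2 change of −1.34 against 0.01 over all genes tested, and 38 fell (median −1.53) when replicate 3 was left out. The share of all genes tested that fell was 7.13%. Of 39 genes of S phase, 0 rose and 31 fell (median −0.95), and 35 fell without replicate 3. Without siLsd1 24 h replicate 2, 10 genes of each list were called lower. In bulk RNA, fewer cells in a phase and less RNA per cell cannot be told apart. Mki67 was at 234 and 353 units at 24 h and at 94.3, 70.4 and 109 at 48 h. Every 48 h array lay below both 24 h arrays, a 3.20-fold fall (log2 change −1.68, SE 0.20, limma adjusted p 0.00109). Cdc6, which loads the replicative helicase onto origins, had 98.5 and 143 units at 24 h and 9.88, 10.3 and 23.9 at 48 h. Its 48 h values of replicates 1 and 2 were under 18.4 units, the limit under which a mean counted as dim. With lower values raised to that level, a floored fold, Cdc6 fell 5.90-fold (log2 change −3.14, SE 0.39, limma adjusted p 0.00126). Tk1, thymidine kinase, went from 279 and 449.7 units to 34.7, 35 and 63.9, an 8.31-fold fall (log2 change −3.06, SE 0.30, limma adjusted p 0.000611). Rrm2, a subunit of ribonucleotide reductase, went from 945 and 1342 units to 229.8, 211 and 355, a 4.36-fold fall (log2 change −2.12, SE 0.23, limma adjusted p 0.000821). In each of these the groups did not overlap, and replicate 3 was the highest of the 48 h arrays. Mcm5, a subunit of the helicase, had 1395 and 1792 units at 24 h and 259, 232 and 669 at 48 h, with replicate 3 again above its replicates. It fell 4.62-fold, and 6.45-fold without replicate 3 (log2 change −2.69, SE 0.13, limma adjusted p 3.32e-07). The kinetochore genes Nuf2, Kntc1 and Ndc80 fell a floored 5.29-, 5.50- and 3.78-fold, and Aurkb, which encodes a mitotic kinase, 3.59-fold. Among regulators of entry into the cycle, 8 of 26 fell and 3 rose, and 9 fell and 5 rose without replicate 3. E2f7 fell 4.81-fold, Ccne2, a cyclin of the start of S phase, 3.61-fold, and Myc 2.33-fold. Cdkn1a, which encodes the cell cycle inhibitor p21, had 3813 and 3612 units at 24 h and 3594, 3557 and 3908 at 48 h and was not called (log2 change −0.01, SE 0.07, limma adjusted p 0.934). Calls were lost without siLsd1 24 h replicate 2 for Mcm5, Nuf2, Aurkb, E2f7, Ndc80 and Myc, for the last 2 also without siLsd1 24 h replicate 1 or siLsd1 48 h replicate 1, and for Myc also without siLsd1 48 h replicate 2. Without either siLsd1 24 h array, or either of siLsd1 48 h replicates 1 and 2, 0 regulators of entry rose, and without either 24 h array 4 fell.

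The mitotic list fell from a lower median at 24 h than in siC cells to about the same median at 48 h. The median log2 intensity of the G2 and mitosis list was 7.96 and 8.32 on the siLsd1 24 h arrays and 9.03 and 8.95 on the siC 24 h arrays. At 48 h it was 6.61, 6.63 and 7.51 with siLsd1 and 6.59, 6.76 and 6.71 with siC, so that replicates 1 and 2 lay within or near the siC range and replicate 3 above it. The median time change was −2.42 with siC, where 38 of 39 fell. The difference of time changes was called for 12 of the 39 genes without replicate 3, all above 0 (median 0.78), and for none with all arrays. Cenpf, a kinetochore protein gene, went from 50.1 and 70.2 units to 25.8, 26.4 and 38.8 with siLsd1. With siC it went from 210.4 and 203 to 25, 24.7 and 36.2, from a higher start to the same range (log2 difference 1.69, SE 0.32, limma adjusted p 0.0310). That range lies not far above the dim limit of 18.4 units, so that the size of the difference is uncertain. Cenpe, a mitotic motor gene, went from 165 and 242 to 73.4, 71.1 and 87.8 with siLsd1 and from 343 and 363 to 54.4, 54.6 and 59.2 with siC (log2 difference 1.19, SE 0.22, limma adjusted p 0.0276). Nek2 and Aspm, genes of centrosome separation and spindle organisation, had log2 differences of 1.49 and 1.31, with limma adjusted p of 0.0440 for both. Of the S phase list 1 gene was called for the difference without replicate 3, at a median time change of −1.12 with siLsd1 and −1.29 with siC in that fit, and none with all arrays. The time call of Cenpf in siLsd1 cells was lost without any 1 of 6 arrays (both siC 24 h arrays and the siLsd1 arrays other than replicate 3), that of Aspm without any 1 of the 9 arrays other than replicate 3, and that of Nek2 without siLsd1 24 h replicate 2. All of these also ended when the probe sets of a gene were averaged, and 1 dimmer probe set of each gene had the opposite sign without a call.

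**Figure D1:**
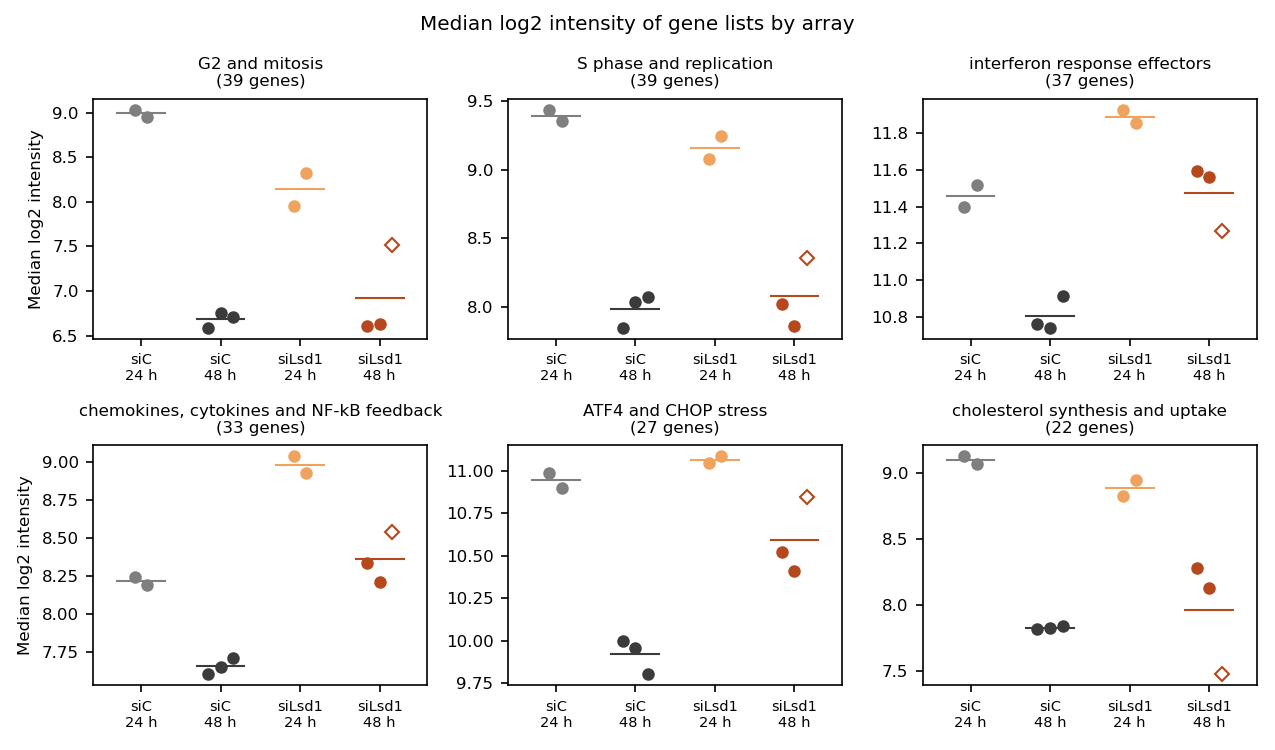
Median log2 intensity (y axis) of 6 gene lists on each of the 10 arrays, by siRNA and time (x axis); points are arrays, lines are group means and the open diamond is siLsd1 48 h replicate 3. The G2 and mitosis list starts lower with siLsd1 at 24 h, and the interferon and chemokine lists start higher and stay above siC at 48 h.

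The interferon genes themselves were among the largest falls. Ifnb1, interferon beta, had 774 and 624 units at 24 h and 97.5, 82.3 and 116 at 48 h. The 48 h arrays, replicate 3 among them, were close together and far below both 24 h arrays, a 7.11-fold fall (log2 change −2.83, SE 0.23, limma adjusted p 0.000343). With siC it went from 106 and 93.9 to 27.1, 16.2 and 25.5, so that the siLsd1 level of 48 h was near the siC level of 24 h. Ifna4 went from 642 and 515 units to 82.0, 60.9 and 74.3, an 8.0-fold fall (log2 change −3.00, SE 0.20, limma adjusted p 0.000241), and Ifna2 and Ifna5 fell 8.49-fold and a floored 6.23-fold. Since the interferon alpha genes resemble each other closely in sequence, which of them gave the signal is uncertain. Of 19 interferon, IRF and STAT genes, 1 rose and 10 fell (median log2 change −0.36), and 4 rose and 12 fell without replicate 3. Without siLsd1 24 h replicate 1, 6 of them were called lower. In siC cells 2 rose and 9 fell.

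Antiviral effector genes, the targets of the interferon signal, fell in siLsd1 cells as in siC cells. Of 37 effectors, 0 rose and 21 fell (median −0.42), and 5 rose and 24 fell without replicate 3 (median −0.33). With siC 1 rose and 26 fell (median −0.53). The count of falls was 11 and 13 without siLsd1 24 h replicate 1 or 2. Rsad2, which encodes viperin, had 12212 and 11254 units at 24 h and 5537, 5552 and 7961 at 48 h. The groups did not overlap, with replicate 3 the nearest to 24 h, and the fall was 1.87-fold (log2 change −0.91, SE 0.14, limma adjusted p 0.00359). Ifit2, an RNA-binding antiviral protein gene, went from 9167 and 7924 to 3781, 3971 and 4917, a 2.03-fold fall (log2 change −1.02, SE 0.12, limma adjusted p 0.00117). Mx1, an antiviral GTPase gene, went from 4878 and 4141 to 1906, 1905 and 2598, a 2.13-fold fall (log2 change −1.09, SE 0.14, limma adjusted p 0.00188), and from 2068 and 2369 to 526, 465 and 536 with siC. Its fall was smaller with siLsd1 than with siC without replicate 3 (log2 difference 0.88, SE 0.13, limma adjusted p 0.0105), as was that of Rsad2 (log2 difference 0.59, SE 0.09, limma adjusted p 0.0150). Oasl1, of the oligoadenylate synthetase family, fell from 306 and 307 units to 26.6, 39.3 and 37.8, 9.0-fold (log2 change −3.17, SE 0.38, limma adjusted p 0.00108). Its siC arrays went from 80.2 and 81.1 to 5.51, 15.6 and 12.4, below 18.4 units. For the effector list the difference was called above 0 for 6 genes and below 0 for 0 without replicate 3. Of 9 interferon-inducible GTPases 0 rose and 5 fell, and 0 and 6 without replicate 3. Igtp and Irgm2 fell 1.39- and 1.32-fold and Gbp2 and Iigp1 1.52- and 1.37-fold. Of 13 genes of MHC class I presentation 0 rose and 8 fell, and 0 and 10 without replicate 3. The immunoproteasome genes Psmb9 and Psmb10 fell 1.71- and 1.67-fold, the peptide transporter gene Tap1 1.49-fold, and Cd274, which encodes the checkpoint ligand PD-L1, 1.83-fold. Without siLsd1 24 h replicate 1 or 2 the falls numbered 1 and 2 among the GTPases and 3 and 4 among the class I genes, and the calls of Gbp2, Iigp1, Irgm2 and Tap1 were lost without replicate 1, those of Gbp2 and Iigp1 also without replicate 2, and that of Tap1 with the mean of its probe sets. Nlrc5, a transactivator of class I genes, went from 931 and 831 to 664, 639 and 607 with siLsd1 and from 580.0 and 660.0 to 226, 227 and 261 with siC. The siC fall was the larger in the fit without replicate 3 (log2 difference 0.95, SE 0.14, limma adjusted p 0.0105). The time call with siLsd1 was lost without either siLsd1 24 h array or siLsd1 48 h replicate 2, and with all arrays the difference was not called (limma adjusted p 0.441). Mlkl, the executioner of necroptosis, also went from 2514 and 2389 to 1128, 1105 and 1212 with siLsd1, a 2.14-fold fall (log2 change −1.09, SE 0.08, limma adjusted p 0.000241), and from 1471 and 1404 to 439, 429 and 440.0 with siC. The difference for Mlkl was 0.63 on the log2 scale with all arrays (limma adjusted p 0.441) and was called without replicate 3 (log2 difference 0.59, SE 0.08, limma adjusted p 0.0105).

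Chemokine and cytokine genes fell in siLsd1 cells, among them some with no called change in siC cells. Of 33 genes of chemokines, cytokines and NF-kB feedback, 0 rose and 17 fell (median −0.54), and 1 rose and 24 fell without replicate 3 (median −0.69). With siC 1 rose and 11 fell (median −0.26). Without siLsd1 24 h replicate 1 or 2 the falls with siLsd1 numbered 7. Il6, the cytokine interleukin 6, had 1553 and 1466 units at 24 h and 176, 152 and 558 at 48 h. Replicate 3 lay between its replicates and the 24 h arrays, and the fall was 6.12-fold with it (log2 change −2.61, SE 0.43, limma adjusted p 0.00452), against 9.22-fold when it was left out (log2 change −3.20, SE 0.11, limma adjusted p 5.81e-08). With siC, Il6 went from 345 and 352 to 36.2, 41.0 and 42.9. The difference of the time changes was not called (without replicate 3, log2 difference −0.08, limma adjusted p 0.871). Ccl20, a chemokine for lymphocytes and dendritic cells, had 245 and 250.1 units at 24 h and 19.8, 20.7 and 105 at 48 h, with replicate 3 above its replicates. The fall was 7.06-fold, and 12.2-fold without replicate 3, with a called difference from siC (log2 difference −1.91, SE 0.37, limma adjusted p 0.0334). With siC it went from 59.6 and 45.0 to 11.9, 21.0 and 16.1, at or under the dim limit at 48 h, so that the siC fall and the size of the difference cannot be read. The calls of Il6 and Ccl20 were lost without either siLsd1 24 h array. Ccl4, a chemokine of monocytes, had 145 and 125 units at 24 h and 23.9, 24.1 and 28.8 at 48 h, a 5.29-fold fall (log2 change −2.40, SE 0.23, limma adjusted p 0.000516). All 5 siC arrays were under 18.4 units for Ccl4, so that no change could be read there, nor the size of the difference, which was called without replicate 3 (log2 difference −2.80, SE 0.38, limma adjusted p 0.00972) but not with all arrays (limma adjusted p 0.112). Ccl5, a chemokine of T cells, had 6099.5 and 4399 units at 24 h and 1529, 1575 and 3512 at 48 h, with replicate 3 the highest of its group. In siC cells it had 1085 and 1063 and then 1100.4, 958 and 967 units (limma adjusted p 0.867). The fall with siLsd1 was 2.54-fold, or 3.34-fold without replicate 3, where it differed from siC (log2 difference −1.65, SE 0.17, limma adjusted p 0.00342). The call of Ccl5 was lost without any 1 of the other 4 siLsd1 arrays. Cxcl10, an interferon-induced chemokine, had 7613 and 7022 units at 24 h and 3299.6, 2862 and 3834 at 48 h, a 2.21-fold fall (log2 change −1.14, SE 0.16, limma adjusted p 0.00241). With siC it went from 3465 and 3764 to 521, 694 and 774. That fall was the larger in the fit without replicate 3 (log2 difference 1.21, SE 0.20, limma adjusted p 0.0175), and the difference was not called with all arrays. Cxcl11 went from 3557 and 3125 to 583, 527 and 1068 with siLsd1. With siC it went from 624 and 625 to 69.5, 83.4 and 93.4, without a called difference (limma adjusted p 0.378 without replicate 3). Without replicate 3 the difference was called for 1 gene of the list above 0 and 5 below 0.

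**Figure D2:**
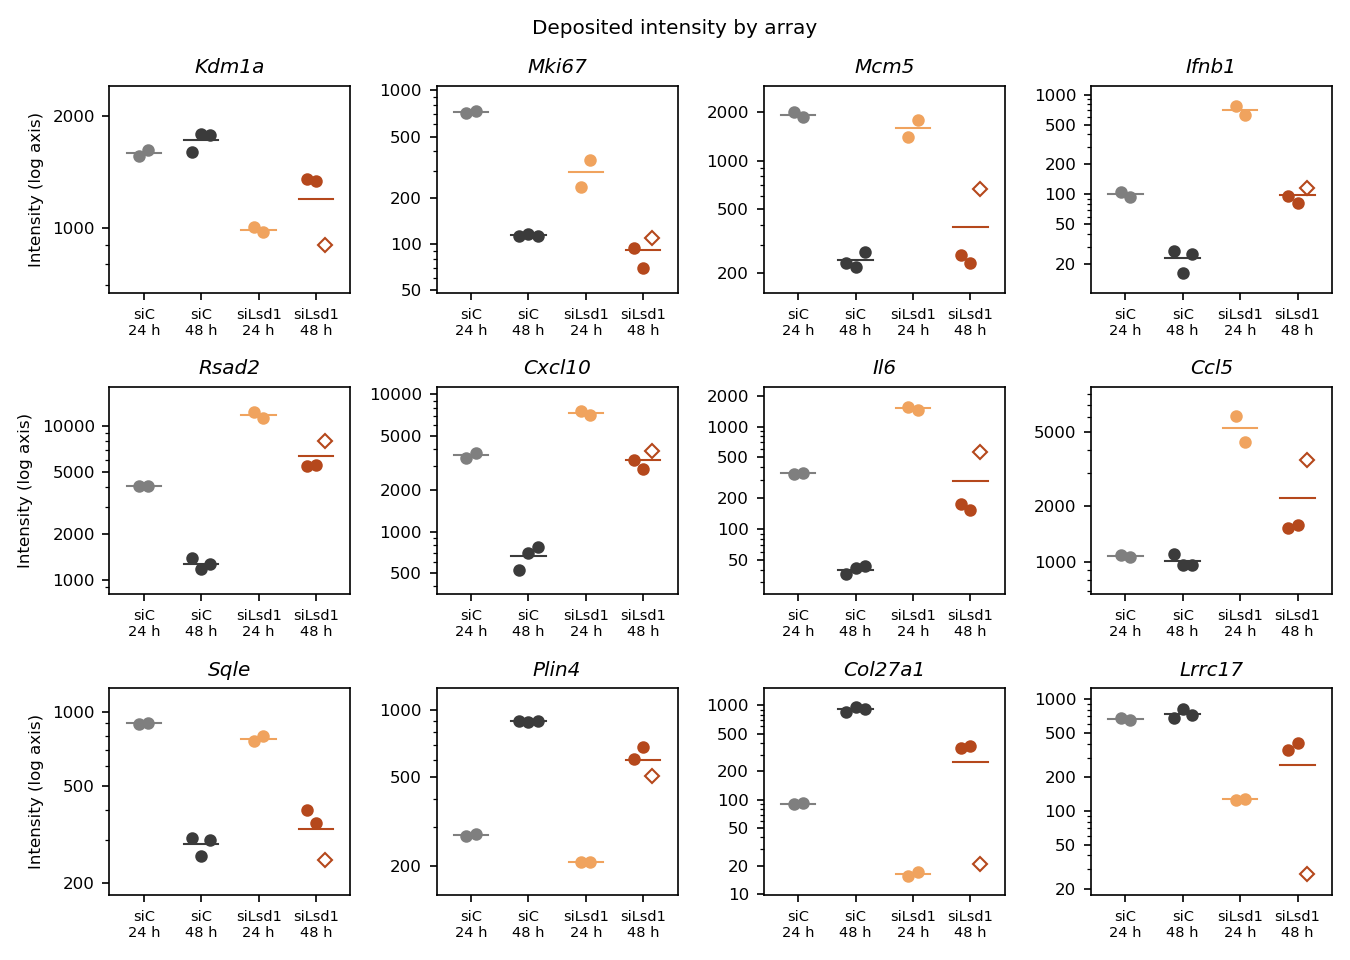
Deposited intensity (y axis, log scale) of 12 genes on each array by siRNA and time (x axis); points are arrays, lines are group means and the open diamond is siLsd1 48 h replicate 3. That array lies between 24 h and its replicates for Mcm5 and Il6, near its replicates for Ifnb1, and near or below the siLsd1 24 h level for Kdm1a, Col27a1 and Lrrc17.

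Part of the genes of the amino acid stress response fell, and the count depended on replicate 3. Of 27 genes of the ATF4 and CHOP response, 0 rose and 8 fell (median −0.39), and 2 rose and 19 fell without replicate 3 (median −0.59). The falls numbered 1 when either siLsd1 24 h array was left out, 3 and 2 when siLsd1 48 h replicate 1 or 2 was, and 4 or 5 when a siC array was. The list's median change from the 24 h mean was −0.55, −0.64 and −0.06 on the 48 h arrays. With siC 20 fell (median −0.99), and the difference was called above 0 for 6 genes without replicate 3. Atf3, a stress-induced transcription factor, had 739 and 726 units at 24 h and 219.7, 164 and 339 at 48 h, a 3.18-fold fall (log2 change −1.67, SE 0.27, limma adjusted p 0.00414). Slc7a5, a subunit of a transporter of large neutral amino acids, went from 2642 and 2533 to 1323, 1362 and 1845, a 1.73-fold fall (log2 change −0.79, SE 0.13, limma adjusted p 0.00429). In siC cells it went from 2003 and 1912 to 713, 659 and 665. That fall was the larger in the fit without replicate 3 (log2 difference 0.58, SE 0.08, limma adjusted p 0.0105), and the difference was not called with all arrays. The one-carbon and serine enzymes Mthfd2 and Psph fell 2.21- and 2.07-fold with all arrays. Of 18 aminoacyl-tRNA synthetases 1 rose and 3 fell, and 1 rose and 16 fell without replicate 3, where the median went from −0.29 to −0.47. Kars went from 2767 and 2735 units to 1611, 1721 and 2054 (log2 change −0.62, SE 0.10, limma adjusted p 0.00335), and Qars was the member that rose, 1.42-fold. Of 23 NRF2 targets 1 rose and 4 fell, and 3 and 12 without replicate 3. Nqo1, a quinone reductase gene, fell 1.90-fold and Gstm5, a glutathione transferase gene, rose 1.46-fold. The ER chaperone list had 2 falls and 0 rises among 20, and 4 and 2 without replicate 3. These counts were near or below the shares over all genes in each fit. The 2 falls with all arrays were Dnajb11 and Hspa5 (1.36- and 1.32-fold). The p53 target list had 5 falls and 0 rises among 22, or 10 and 2 without replicate 3. Without either siLsd1 24 h array 1 gene of the synthetase list and 1 of the p53 list fell, and of the NRF2 list 1 and 0. Gadd45g, a growth arrest gene, went from 1084 and 1126 to 430.0, 439 and 495, a 2.43-fold fall (log2 change −1.28, SE 0.12, limma adjusted p 0.000516) that exceeded that of siC without replicate 3 (log2 difference −0.85, SE 0.15, limma adjusted p 0.0225). Of the genes named here, the calls of Kars and Gadd45g held whichever array was left out, and the others were lost without at least 1 of the siLsd1 24 h arrays. The call of Psph was lost without any 1 of 9 arrays and that of Gstm5 without any 1 of 8, siC arrays among them. With the siLsd1 arrays alone that of Kars was lost too.

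Cholesterol synthesis genes fell, with replicate 3 the lowest array. Of 22 genes of cholesterol synthesis and uptake, 0 rose and 10 fell (median −0.61), and 1 rose and 14 fell without replicate 3 (median −0.41). The list's median change from the 24 h mean was −0.38, −0.45 and −1.0 on replicates 1, 2 and 3, so that this array lay farther from 24 h than its replicates here. Sqle, squalene epoxidase, had 760.1 and 796 units at 24 h and 397, 353 and 248 at 48 h, without overlap, a 2.38-fold fall (log2 change −1.25, SE 0.17, limma adjusted p 0.00225). Fdps, farnesyl diphosphate synthase, went from 1505 and 1814 to 1041, 884 and 457, with replicate 3 the lowest (log2 change −1.14, SE 0.27, limma adjusted p 0.0221). Idi1, an isomerase of the same pathway, went from 329.8 and 456 to 253, 208 and 90.0 with siLsd1 and from 615 and 595 to 159, 168 and 174 with siC, a difference called without replicate 3 (log2 difference 1.10, SE 0.19, limma adjusted p 0.0225). With siC 1 member of the list rose and 15 fell (median −0.79). Abca1, which exports cholesterol, rose from 216 and 218 to 431, 436 and 554, 2.17-fold (log2 change 1.12, SE 0.14, limma adjusted p 0.00120). Its dimmer probe sets gave log2 changes of 0.27 and 0.45 without a call. It was the only gene called of 9 in the cholesterol export list, where 1 rose and 0 fell (median 0.17). Without replicate 3 the counts were 2 and 1, near or below the shares over all genes in that fit. Of 18 genes of fatty acid oxidation and energy use 6 rose and 0 fell, and 8 and 0 without replicate 3. Etfdh, which passes electrons from fatty acid oxidation to the respiratory chain, went from 497 and 537 to 784, 774 and 762, a 1.5-fold rise (log2 change 0.58, SE 0.08, limma adjusted p 0.00203), and the dehydrogenase gene Acadm rose 1.67-fold. Without siLsd1 24 h replicate 1 or 2 there were 4 and 2 falls in the cholesterol list and 2 and 1 rises in the fatty acid list, which also had 2 rises without siLsd1 48 h replicate 1 or 2, and the calls of Fdps, Idi1 and Acadm were lost without either 24 h array. That of Idi1 was lost without 8 of the 10 arrays, and those of Fdps, Idi1, Abca1 and Etfdh ended when the probe sets of a gene were averaged.

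Regulators of fat cell formation changed in part, while the core factors were not called with all arrays. Of 24 adipogenic regulators 1 rose and 8 fell, and 6 and 10 without replicate 3, while without either siLsd1 24 h array 3 fell. Id2, an inhibitor of basic helix-loop-helix factors, had 1237 and 1334 units at 24 h and 377, 336 and 551 at 48 h, a 3.12-fold fall (log2 change −1.64, SE 0.18, limma adjusted p 0.000804), and its relative Id4 also fell 3.12-fold. Gata3, known to restrain fat cell formation, went from 362 and 344 to 177, 165 and 123 (log2 change −1.21, SE 0.15, limma adjusted p 0.00143). Pparg, the master regulator of fat cells, had 787 and 778 units at 24 h and 762, 758 and 796 at 48 h, overlapping with all arrays (log2 change −0.02, SE 0.07, limma adjusted p 0.892). Cebpa, another core factor, had 139.9 and 107 and then 135, 129 and 81.0 units and Cebpd 2039 and 1878 and then 1906, 1649 and 1747, neither called (limma adjusted p 0.739 and 0.487). Cebpb, an early factor, at 4633 and 4492 and then 3568, 3553 and 4634 units, was called without replicate 3 alone (log2 change −0.36, SE 0.08, limma adjusted p 0.00539). Dlk1, a preadipocyte protein gene, had 4589.9 and 4289 units at 24 h and 3974, 4229 and 3868 at 48 h and was not called (log2 change −0.14, SE 0.08, limma adjusted p 0.285). Of 13 mature adipocyte products 3 rose and 0 fell, and 5 rose and 2 fell without replicate 3. Plin4, a lipid droplet protein gene, rose from 208 and 208 to 605, 684 and 508, 2.86-fold (log2 change 1.51, SE 0.12, limma adjusted p 0.000343), and from 274 and 280.1 to 899.9, 887 and 897 with siC. Cd36, a fatty acid transporter, rose from 264 and 316 to 725, 761 and 922, 2.76-fold (log2 change 1.47, SE 0.15, limma adjusted p 0.000756). For Plin4 and Cd36 all 3 arrays of 48 h lay above both of 24 h.

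Several matrix genes rose on replicates 1 and 2 of 48 h and not on replicate 3. Of 19 collagen chains 1 rose and 2 fell, and 9 rose and 4 fell without replicate 3. Of 25 proteoglycans and matricellular proteins the counts were 0 and 7 with all arrays and 8 and 11 without it, and of 23 matrix proteases and inhibitors 3 and 2, and 10 and 4. Col27a1, a fibrillar collagen gene, had 15.7 and 17.3 units at 24 h and 354, 371 and 20.9 at 48 h. Replicates 1 and 2 were far above 24 h and replicate 3 was near it, so that the change was not called with all arrays (limma adjusted p 0.0611) and was a floored 19.7-fold rise without replicate 3 (log2 change 4.46, SE 0.10, limma adjusted p 1.86e-09). With siC, Col27a1 went from 90.2 and 92.1 to 856, 956 and 916. Omd, the proteoglycan osteomodulin, had the same order, at 16.9 and 20.1 and then 152, 142 and 17.9 units (log2 change 3.00, SE 0.18, limma adjusted p 8.94e-07) without replicate 3. Dpt, dermatopontin, had 144 and 135 units at 24 h and 511, 487 and 69.4 at 48 h, and Sparcl1, a SPARC-related glycoprotein gene, 169 and 187 and then 604, 584 and 58.3. On replicate 3 both lay below the 24 h arrays, while on replicates 1 and 2 they lay above. Without it they rose 3.58- and 3.34-fold, both at a limma adjusted p of 3.32e-07. Mgp, matrix Gla protein, fell with all arrays, from 666 and 687 to 337, 316 and 115 (log2 change −1.55, SE 0.37, limma adjusted p 0.0220), and replicate 3 was the lowest. Tnc, tenascin C, was at 428 and 466 and then at 124, 121 and 114 units, a 3.73-fold fall with replicate 3 close to its replicates (log2 change −1.90, SE 0.15, limma adjusted p 0.000343). Mmp13, a collagenase gene, rose from 126 and 119.8 to 329, 317 and 692, with replicate 3 the highest, 3.39-fold with it (log2 change 1.76, SE 0.32, limma adjusted p 0.00631), against 2.63-fold when it was left out. The protease inhibitor genes Timp1 and Timp3 fell 1.75- and 3.17-fold. Lum, lumican, had 22.2 and 19.5 units at 24 h and 28.2, 27.6 and 23.6 at 48 h and was not called (log2 change 0.34, SE 0.35, limma adjusted p 0.573). The calls of Mgp and Mmp13 were lost without either siLsd1 24 h array, and without either of them 2 proteoglycan genes were called lower and 0 protease genes higher. The call of Tnc ended with the mean of its probe sets.

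**Figure D3:**
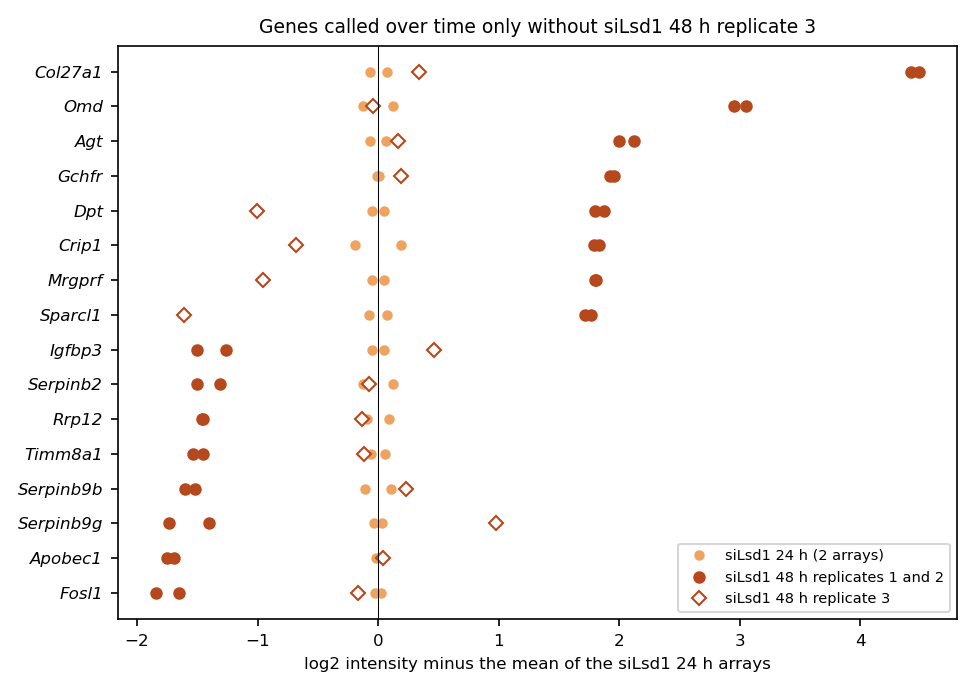
Log2 intensity minus the mean of the siLsd1 24 h arrays (x axis) for the 16 named genes called over time only without siLsd1 48 h replicate 3 (y axis); points are arrays and the open diamond is that replicate. It lies near the 24 h arrays for Col27a1, Omd and Apobec1, and on the far side of them for Dpt, Sparcl1 and Serpinb9g. The choice of the genes favours a place of this array away from its replicates.

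Replicate 3 was placed on the way from 24 h to 48 h by genes called without it and changed at least 2-fold, where 0% is the 24 h mean and 100% the mean of replicates 1 and 2. Its median position was 32.5% over 333 genes that rose, of which 66.1% were nearer to 24 h, and 54.1% over 345 genes that fell, of which 41.2% were. Each of the other 48 h arrays, treated the same way, had a median between 88.2% and 120% and at most 6.25% of genes nearer to 24 h. For siLsd1 48 h replicates 1 and 2 the 100% mark then included replicate 3. Their genes were also fewer, 74 and 79 that rose and 224 and 204 that fell, so that their positions are not on the same scale. By list the median position of replicate 3 was −0.96% for 3 collagen chains, which lay between −8.50% and 7.62%. Members of other matrix lists went both ways, with 5 of 8 proteoglycan genes (−74.9% to 243%, median −12.5%) and 4 of 6 matrix protease genes (−77.4% to 179%, median −1.70%) nearer to 24 h. The median was 21.7% for 5 genes of the ATF4 list, 46.3% for 12 chemokine and cytokine genes, 52.3% for 35 genes of G2 and mitosis and 64.9% for 23 of S phase. For 5 genes of the interferon, IRF and STAT list it was 96.4% (69.9% to 120%). These were the interferon genes Ifna2, Ifna4, Ifna5 and Ifnb1, and Irf5, which had the lowest position, with no STAT gene among them. These are descriptions of 1 array, and what set it apart was not tested. Among the falls called only without it, Fosl1, an AP-1 subunit gene, had 472 and 487 units at 24 h and 153, 134 and 426 at 48 h (log2 change −1.75, SE 0.13, limma adjusted p 4.31e-06). Apobec1, a cytidine deaminase gene, had 1154 and 1122 and then 353, 338 and 1169, and the serpin gene Serpinb9b 557 and 649 and then 210.2, 199 and 706. In these 3 genes replicate 3 lay with the 24 h arrays and not with its replicates. They were chosen for a call only without it, which favours such an order, so that they add nothing further on that array.

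**Figure D4:**
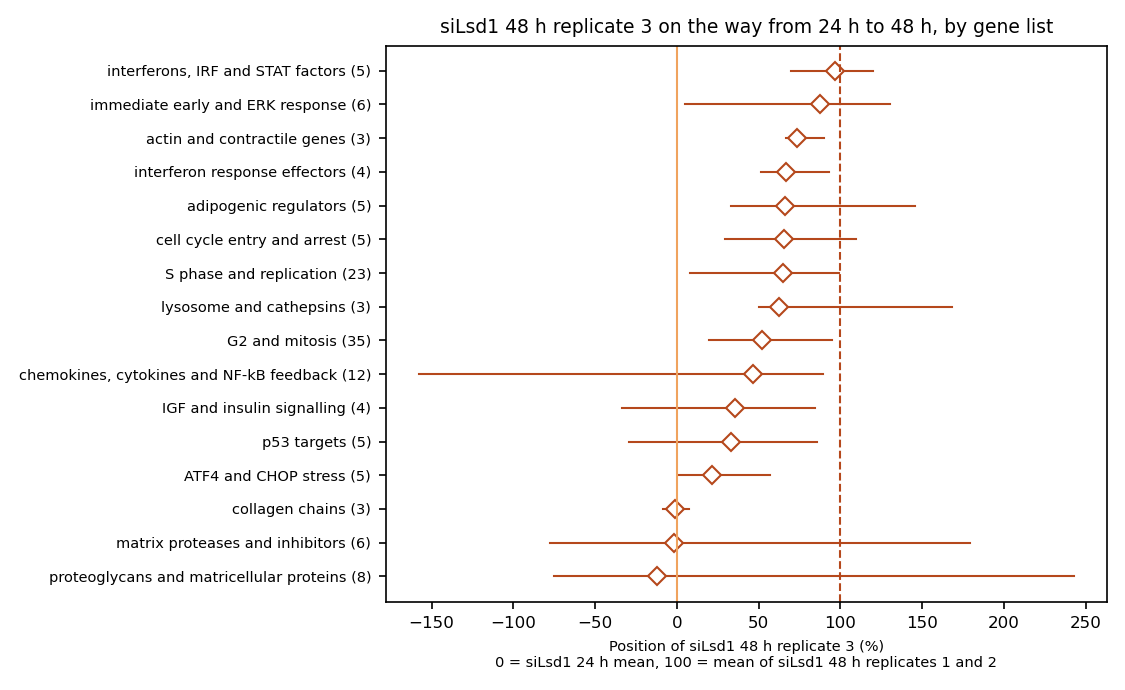
Position of siLsd1 48 h replicate 3 (x axis, in %) on the change from the siLsd1 24 h mean (0) to the mean of siLsd1 48 h replicates 1 and 2 (100), by gene list (y axis, number of genes in brackets); diamonds are medians and lines run from the lowest to the highest gene. The medians of the matrix lists lie near 0, with members of the proteoglycan and protease lists on both sides. The median of the interferon, IRF and STAT list, here interferon genes and Irf5, lies near 100.

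Part of the contractile and growth factor response genes fell. Of 23 actin and contractile genes 0 rose and 10 fell (median −0.17), and 13 fell without replicate 3, but 3 without either siLsd1 24 h array. Actg2, a smooth muscle actin gene, went from 221 and 314 to 54.0, 58.0 and 65.6, a 4.46-fold fall (log2 change −2.16, SE 0.17, limma adjusted p 0.000343). Acta2, another smooth muscle actin gene, went from 9984 and 10341 to 4891, 4587 and 6104 (log2 change −0.98, SE 0.10, limma adjusted p 0.000699), and Tagln, which encodes an actin-binding protein, fell 2.40-fold. In these genes all arrays of 48 h lay below those of 24 h, as they did with siC. Of 18 YAP and TEAD targets 0 rose and 6 fell, and 1 and 8 without replicate 3. Ccn2, connective tissue growth factor, fell 3.30-fold. Ccn1, a matricellular protein gene, had 2597 and 2556 units at 24 h and 1704, 1580.2 and 1420.3 at 48 h (log2 change −0.72, SE 0.09, limma adjusted p 0.00178). With siC it had 1748 and 1546 and then 1716, 1535 and 1609, and the difference was called without replicate 3 (log2 difference −0.63, SE 0.10, limma adjusted p 0.0165). Of its other probe sets the brightest fell too (−0.69 on the log2 scale, limma adjusted p 0.00225) while 2 dimmer ones gave 0.41 and 0.47 without a call. Of 33 immediate early and ERK response genes 0 rose and 8 fell, and 8 rose and 12 fell without replicate 3, the rises near the 21.3% of all genes in that fit. Hbegf, an EGF receptor ligand gene, went from 327 and 316 to 79.8, 77.0 and 116, a 3.6-fold fall (log2 change −1.85, SE 0.22, limma adjusted p 0.00118), and Dusp6, an ERK phosphatase gene, fell 2.59-fold. Dusp1, a phosphatase of MAP kinases, had 1549.8 and 1376 units at 24 h and 1323, 1247 and 665 at 48 h, and with siC 586 and 630.0 and then 1066, 1161 and 1196. It was not called over time with siLsd1 (limma adjusted p 0.197, and 0.0988 without replicate 3), but the difference from the rise in siC cells was called without replicate 3 (log2 difference −1.09, SE 0.11, limma adjusted p 0.00342). The difference was called below 0 for 5 genes of this list and above 0 for 0. Without either siLsd1 24 h array 2 YAP targets and 5 immediate early genes were called lower, and the calls of Acta2 and Ccn1 ended with the mean of their probe sets.

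The largest rises fell into no single list. Ager, the receptor for advanced glycation end products, had 22.7 and 13.5 units at 24 h and 103, 119.9 and 84.2 at 48 h, a floored 4.96-fold rise (log2 change 2.54, SE 0.22, limma adjusted p 0.000343). Slc15a2, a peptide transporter gene, rose from 111 and 104 to 450.4, 509.6 and 269.9, 3.67-fold (log2 change 1.88, SE 0.22, limma adjusted p 0.000954). A dimmer probe set of each had the opposite sign without a call. Tle2, a corepressor gene, rose from 186 and 177 to 786, 823 and 382, with replicate 3 the lowest of the 48 h arrays (log2 change 1.79, SE 0.27, limma adjusted p 0.00293). Taf15, an RNA-binding protein gene, rose from 136 and 124 to 440.0, 447 and 403, with replicate 3 near the others (log2 change 1.73, SE 0.18, limma adjusted p 0.000728), but the call was lost with the mean of its probe sets. Its dimmer probe set went the other way without a call (log2 change −0.90, limma adjusted p 0.0816), so that the rise rests on 1 probe set. Sned1, a matrix protein gene, had 243 and 238 units at 24 h and 1468, 1665 and 374 at 48 h. It rose 4.03-fold with all arrays and 6.49-fold without replicate 3, where the rise exceeded that of siC (log2 difference 0.77, SE 0.10, limma adjusted p 0.00777), and with all arrays the call was lost without any 1 of the other 4 siLsd1 arrays. Sorcs2, Hypk, Lgals4, Hoxd3os1, Plscr4 and Nrbp2 rose 3.81-, 3.67-, 3.66-, 3.63-, 3.37- and 3.20-fold, and the call of Hoxd3os1 was lost without siLsd1 24 h replicate 2. Among the falls outside the lists, Slc30a1, a zinc exporter gene, went from 543 and 598 to 144, 146 and 54.0, 5.46-fold lower (log2 change −2.45, SE 0.36, limma adjusted p 0.00288), with replicate 3 the lowest. Of 28 lysosomal genes 7 rose and 1 fell, and 13 and 6 without replicate 3. The cathepsin genes Ctsh and Ctsf rose 2.48- and 2.46-fold and Ctss, a cathepsin of antigen-presenting cells, fell 2.87-fold. Without either siLsd1 24 h array 1 lysosomal gene was called higher, and each of the 3 cathepsin calls was lost without 1 of them (Ctsh without replicate 2, Ctsf and Ctss without replicate 1).

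The partners of LSD1 and several signalling and metabolic lists had few calls with all arrays and more without replicate 3. Of 19 genes of LSD1 and its complexes 0 rose and 0 fell, and 7 rose and 1 fell without replicate 3, Kdm1a among those that rose. Rises and falls numbered 2 and 1 of 25 genes of hypoxia and glycolysis, 1 and 1 of 33 of oxidative phosphorylation and 1 and 0 of 25 ribosomal protein genes, near or below the shares of 7.25% and 7.13% over all genes. Without replicate 3 they numbered 6 and 8, 4 and 10, and 2 and 6, with the falls of each list above the 17.1% of all genes in that fit. They were 1 and 0 of 13 genes of RNA interference, the machinery that the siRNA itself uses, and 3 and 1 of 19 genes of autophagy, which had 0 rises without either siLsd1 24 h array. Without replicate 3 they were 5 and 2 for RNA interference and 8 and 3 for autophagy. Of 23 genes of TGF-beta and BMP signalling 2 rose and 6 fell, 6 rose and 10 fell without replicate 3, and without either siLsd1 24 h array 1 fell. Smad6, an inhibitor of BMP signalling, went from 662 and 730.4 to 347, 381 and 414, a 1.83-fold fall (log2 change −0.87, SE 0.11, limma adjusted p 0.00133) that held with each array left out. Of 23 genes of Wnt signalling 0 rose and 1 fell, and 6 and 1 without replicate 3, near and below the shares of 21.3% and 17.1% over all genes. Of 18 genes of IGF and insulin signalling 3 rose and 2 fell, and 10 and 3 without replicate 3. Igfbp4, which binds IGFs, rose from 403 and 323 to 841, 830.3 and 734, 2.22-fold (log2 change 1.15, SE 0.12, limma adjusted p 0.000804), with no overlap. Insr, the insulin receptor, rose from 218 and 224 to 498, 496 and 361 (log2 change 1.02, SE 0.14, limma adjusted p 0.00192), but its sign turned with the mean of its probe sets. Igf1 went from 57.0 and 47.2 to 37.0, 32.7 and 20 (log2 change −0.84, SE 0.25, limma adjusted p 0.0483), a call lost without 8 of the 10 arrays.

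The change over time was compared with that of siC cells gene by gene. Across the 13644 genes the time changes of the siRNAs had a Pearson correlation of 0.776 with all arrays and of 0.791 without replicate 3, a description across genes, which are no replicates. The 2 time comparisons share no array but share their times and passages. Called differences below are of the fit without replicate 3, since none was called with all arrays. Without replicate 3, 4014 genes were called in the same direction with both siRNAs, 76.7% of the siLsd1 calls and 72.8% of the siC calls, and 24 in opposite directions. Map2k6, a kinase gene upstream of p38, was of the latter, at 67.6 and 64.1 units at 24 h and 116, 102 and 64.3 at 48 h with siLsd1, and 285 and 266 and then 244, 190.4 and 196 with siC (log2 difference 1.12, SE 0.18, limma adjusted p 0.0175). Rerg, a growth inhibitor related to RAS, had 98.5 and 95.8 units at 24 h and 141, 139 and 67.7 at 48 h with siLsd1 and fell from 168 and 207 to 95.1, 108 and 131 with siC (log2 difference 1.28, SE 0.21, limma adjusted p 0.0177). Lrrc17, a leucine-rich repeat protein gene, had 126 and 128 units at 24 h and 348, 401 and 27.2 at 48 h with siLsd1, and 684 and 649 and then 680.0, 817 and 729 with siC (log2 difference 1.40, SE 0.14, limma adjusted p 0.00342). In both Rerg and Lrrc17 replicates 1 and 2 lay above both 24 h arrays and replicate 3 below them. Serpinb1a, a protease inhibitor gene, had 971 and 861 units at 24 h and 456, 418 and 988 at 48 h with siLsd1, and 322 and 290.3 and then 339, 352 and 305 with siC (log2 difference −1.18, SE 0.14, limma adjusted p 0.00535). Il6ra, a subunit of the interleukin 6 receptor, had 147 and 135 and then 140.0, 109 and 60.8 with siLsd1 and rose from 44.7 and 59.3 to 94.5, 111 and 102 with siC (log2 difference −1.18, SE 0.23, limma adjusted p 0.0370). F8, coagulation factor VIII, had 418 and 316 units at 24 h and 163, 155 and 309.8 at 48 h with siLsd1, and 89.1 and 106 and then 86.5, 101 and 90.9 with siC (log2 difference −1.13, SE 0.20, limma adjusted p 0.0247). Cyp39a1, an oxysterol hydroxylase gene, had 54.8 and 47.6 and then 95.9, 111 and 56.8 with siLsd1, and 102 and 113 and then 79.6, 88.0 and 95.7 with siC (log2 difference 1.3, SE 0.21, limma adjusted p 0.0157). Epas1, a hypoxia-inducible factor gene, had 92.2 and 91.0 and then 132, 124 and 54.6 with siLsd1 and was called over time without replicate 3 alone (log2 change 0.48, SE 0.10, limma adjusted p 0.00235), with no called difference from siC (limma adjusted p 0.161). Syne3, of a nuclear envelope protein, was with Ccl4, Nlrc5, Mlkl and Cxcl10 among the 5 genes of smallest p for the difference with all arrays (log2 difference 0.98, SE 0.17, limma adjusted p 0.441). It had 149 and 170.2 and then 158, 158 and 171 with siLsd1, and 205 and 192 and then 92.4, 105 and 109 with siC.

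**Figure D5:**
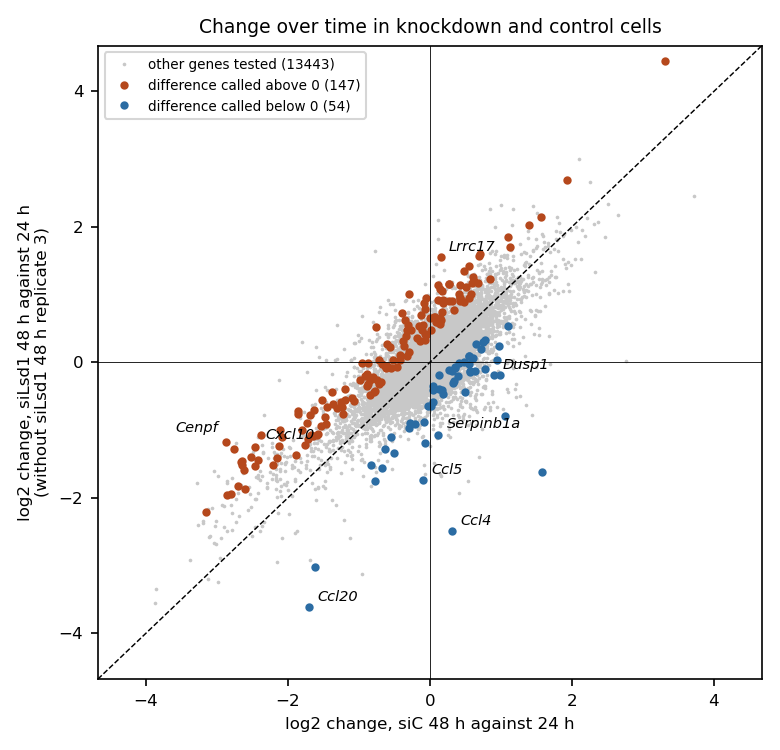
Log2 change from 24 h to 48 h in siC cells (x axis) and in siLsd1 cells without replicate 3 (y axis); each point is one of 13644 genes, the dashed line marks equal changes, and coloured points are the 147 genes with a called difference above 0 and the 54 below 0. Cenpf and Cxcl10 fall more with siC and Ccl5 more with siLsd1, while the siC positions of Ccl4 and Ccl20 rest on intensities near or under 18.4 units. At 48 h Cenpf lay not far above that level with both siRNAs.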

How the data were processed

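Deposited values are intensities per probe set of an Affymetrix mouse array with 45037 probe sets, 1 column per array. The authors' normalization, software and background correction are not given in the sources used here. The deposited intensities were taken as they stood and put on the log2 scale. Of the probe sets 34945 had 1 gene symbol. The brightest probe set of each of 18193 genes by mean log2 intensity was kept, and the dimmest 25% (a mean under 18.4 intensity units) were left out, which left 13644 genes. Group means over all 10 arrays were fitted with limma (version 3.58.1, R version 4.3.3; intensity trend, 6 residual degrees of freedom, or 5 without siLsd1 48 h replicate 3), with Benjamini-Hochberg adjustment over all genes tested; calls needed an adjusted p under 0.05. Fold changes are differences of mean log2 intensity turned back. The pipeline was tested on simulated data with known changes. Their noise was independent, with the same spread in all groups and no array set apart. The test therefore says nothing about the effect of replicate 3 on the calls.

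Named genes were the 12 largest called rises and falls over time with groups that did not overlap and a mean of at least 100 units in the higher group, 8 of each called only without replicate 3, 8 of each for the difference (or the 5 of smallest p), up to 4 called genes of each list (or 2 of smallest p), and a fixed set of regulators, of which Ccnb1 was not tested here. Members and lists were chosen with earlier results of these data known. The alternatives were other probe set rules, filters, scalings, variance settings, a fold threshold, the replicate number as a block and each array left out. Promoter sequences came from RefSeq.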

Additional observations from a re-analysis of the deposited data

Results flagged for a closer look

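Time changes that differed between the siRNAs, by limma's test of the difference at an adjusted p under 0.05 without siLsd1 48 h replicate 3, are given here as log2 of siLsd1 minus siC. There were 201 such genes, and 0 with all arrays. Among genes of cell division the difference was 1.69 for Cenpf, 1.49 for Nek2, 1.31 for Aspm and 1.19 for Cenpe, each falling less with siLsd1. Cenpf ended not far above 18.4 intensity units with both siRNAs, so that the size of its difference is uncertain. For Cxcl10 it was 1.21. Among genes of interferon and chemokines it was −1.65 for Ccl5, which had no called change with siC. It was −1.40 for Ifna4, −1.91 for Ccl20 and −2.80 for Ccl4, whose siC arrays lay near or under 18.4 intensity units (at 48 h for Ifna4 and Ccl20, at both times for Ccl4), so that the size of these differences cannot be read. It was 1.40 for Lrrc17, 1.3 for Cyp39a1 and 1.28 for Rerg. It was −1.18 for Serpinb1a, −1.18 for Il6ra, −1.13 for F8 and −1.09 for Dusp1. With at most 3 arrays in a group, no test for a single outlying sample was run.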

How the results depend on the processing

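The count of 1962 genes called over time with siLsd1 was 6336 with array weights (3490 higher, 2846 lower), 999 with a change of at least 1.5-fold required (467 and 532), and 347 with the siLsd1 arrays alone (124 and 223). That last setting leaves fewer samples for the spread. It also takes the spread from the arrays that include replicate 3, without the siC arrays, which lay closer together. These were not told apart. In it 75 of the 139 called genes named by the rule lost their call. With 1 array left out it lay between 357 and 5232 (166 to 2900 higher, 191 to 2332 lower). It was 2360 with all probe sets, 1397 with their mean, 1711 with no filter on dim genes, 1983 with the lowest 50% left out, 2073 after quantile normalization, 2071 after median centring and 1553 with no intensity trend. The siC count of 3302 was 4998 with all probe sets, 6192 with array weights, 1785 with the fold threshold and 1482 to 5510 with 1 array left out. The difference was called for 3 genes with 16 units added, 3 with low values raised to the dim limit, 434 with array weights, 1 with no trend and 0 to 201 with 1 array left out. Insr turned from a rise to a log2 change of −0.038 with the mean of its probe sets. After median centring 36.7% of siLsd1 calls and 28.6% of siC calls were higher, and the median of all genes moved from 0.01 to −0.06 and −0.13. Deviations of same-numbered arrays from their group means correlated between −0.25 and 0.76, the highest for replicate 1 of siC 24 h and siC 48 h. In groups of 2 arrays the deviations mirror each other, so that these correlations cannot tell whether the numbers pair the samples. With the replicate number as a block 2210 genes were called with siLsd1, 3697 with siC and 0 for the difference. Of 139 called genes named by the rule, 61 kept their call with each array left out. Of 118 further probe sets of 69 such genes 19 had the opposite sign, 0 of them called. The cause of these changes was not tested. With 2 or 3 arrays a group, the number of arrays limits the precision.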
